A study of Mus musculus with 15 samples.

Results

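DDX41 carrying the R525H substitution was compared with an empty vector in mouse blood progenitors that hold 1 intact copy of Ddx41. The comparison covers 6 of the 15 libraries of the study, chosen by sample title, namely 3 with the R525H vector and 3 with the empty vector, and it runs over all genes that passed a filter on low counts (14548 of 55359). The cells were fetal liver progenitors immortalized with Hoxb8 and grown in β-estradiol. All 6 libraries share the heterozygous genotype hi-Ddx41+/-, exposure to retrovirus for 2 days and sorting on GFP, so the vector is the difference the labels give between them. Companion groups of 3 libraries each held wild-type DDX41 or the G173R substitution in the same hi-Ddx41+/- line, or the empty vector in the line with both copies, hi-Ddx41+/+. The labels name 1 heterozygous line and do not say whether the 3 libraries of a group are separate cultures, and the p-values then reflect only how far these libraries scatter, possibly for technical reasons. Immortalized cells are kept in a dividing progenitor state, and the remaining intact copy of Ddx41 was present in both groups.

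DDX41 is a DEAD box protein, one of a family of ATP-dependent enzymes that bind and remodel RNA. It is found with the late spliceosome, has been linked to ribosome and small nucleolar RNA biology, to RNA-DNA hybrids and to sensing of nucleic acids in the cytosol, and is among the genes most often altered in the germline of families with myeloid neoplasms. R525H lies in the C-terminal helicase domain and is the substitution most often acquired on the other allele in such patients, whereas G173R is an inherited variant. The libraries bear on the question of which RNA levels differ when R525H is supplied to cells short of the protein.

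Few RNA levels were called different between the R525H and empty-vector libraries, and their number depended on the fit. Pak2, a serine/threonine kinase that acts downstream of the small GTPases Rac and Cdc42, fell to 68.7% of its empty-vector level, and Cep55, a midbody protein that recruits the membrane-cutting machinery for abscission at the end of cell division, fell to 65.7%. These 2 genes were the ones called at an adjusted p under 0.05 in edgeR's quasi-likelihood test, 0.0137% of the genes tested, and no gene rose by that test. Pak2 lies on chromosome 16 and Cep55 on chromosome 19. Without adjustment, 725 genes (4.98%) had a p under 0.05, of which 330 lay higher and 395 lower with R525H. Next in order of p came the kinase gene Stk4, the mitochondrial ribosomal gene Chchd1 and Man2c1 among those that lay lower. Among those that lay higher came Clk3, Snhg1 and Hbs1l. A further 7 genes, led by Ybx1, had a shorter mean transcript length with R525H.

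Depth ranged from 22104066 to 40527116 expected counts in the 6 libraries, the lowest being R525H library 3, and 18087 to 18911 genes had a count. Progenitor markers were present in all 6, with Cd34 at 501 to 653 TPM, Kit at 78.3 to 106 TPM and Myb at 149 to 210 TPM, while Hoxa9 was listed at 0 in 5 of 6. The liver, stroma and endothelial markers Alb, Ttr, Col1a1, Col3a1, Dcn and Cdh5 were listed at 0 in all 6, and of the other markers of those cells Pecam1 lay at 2.15 to 3.74 TPM, Afp at 0.13 to 0.83 TPM, and Apoa1, Col1a2, Pdgfra and Kdr at no more than 0.17 TPM. In a principal component analysis of the 6 libraries the first component (37.9% of the variance) placed library 3 of both groups apart from the others, the second (21.9%) placed empty-vector library 1 apart at -43.63, and the groups separated on the third (17%), where the empty-vector libraries lay at -18.06, -11.84 and -22.02 and the R525H libraries at 24.55, 2.659 and 24.72. Library 3 of both groups and empty-vector library 1 thus stood apart along larger directions than the one that separated the vectors. Over all 15 libraries, the second component (23.5%) placed library 3 of every heterozygous group between -47.88 and -28.28. Libraries 1 and 2 of those groups lay between -1.03 and 19.93. The main fit has no term for this, and counts with the replicate number as a block are given at the end. Counts are also given from libraries 1 and 2 of each group and without each library.

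Endogenous Ddx41 was read first as a check of the labels. It lay at 29.4, 33 and 28.7 CPM (expected counts per library total after TMM scaling, the unit of all CPM levels given here) in the empty-vector libraries and at 32.7, 34.6 and 29.1 in the R525H libraries. The groups overlapped, with a log2 difference of 0.08 (95% interval -0.16 to 0.33). In the hi-Ddx41+/+ line with empty vector the mean was 59.3 ± 3.94 CPM (SD, n = 3), so the level tells the 2 lines apart but not the vectors, and it cannot check which library held R525H. The design text does not give the species of the insert, and nothing in the sources used here says whether its reads would count towards mouse Ddx41. For 12 of the 15 deposited tables, all 6 used here among them, the group code in the table's name disagrees with the sample title. The tables of the R525H samples carry the code that titles use for the wild-type DDX41 vector, and those of the empty-vector samples a code that no title has. Groups follow the titles throughout, and if the codes held instead, every value given for R525H would belong to another vector.

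Pak2 showed the smallest p. Its level was 210, 191 and 195 CPM with empty vector and 141, 135 and 133 CPM with R525H, with means of 199 ± 9.84 and 136 ± 4.34 (SD, n = 3). Every R525H library lay below every empty-vector library, and the log2 difference was -0.54 ± 0.07 (SE; 95% interval -0.68 to -0.40; edgeR adjusted p = 0.0187). Wild-type DDX41 gave 183 ± 10.7 CPM, G173R 194 ± 10.4 CPM and the hi-Ddx41+/+ line 191 ± 4.08 CPM, all nearer to the empty vector than to R525H. Against G173R the difference was called (log2 -0.51, edgeR adjusted p = 0.0195), and against wild-type DDX41 it was not (log2 -0.42, edgeR adjusted p = 0.0974).

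Cep55 gave another order of the vectors. Its level was 91.9, 97.8 and 93.1 CPM with empty vector and 66.8, 63.3 and 55.7 CPM with R525H, a fall of the mean from 94.3 ± 3.15 to 62 ± 5.66 (SD, n = 3). The groups did not overlap, and the log2 difference was -0.60 ± 0.08 (SE; 95% interval -0.78 to -0.43; edgeR adjusted p = 0.0308). Wild-type DDX41 gave 70.5 ± 5.97 CPM, close to R525H, whereas G173R gave 97.7 ± 2.63 CPM. R525H and wild-type DDX41 differed by a log2 of -0.19 (95% interval -0.36 to -0.01; edgeR adjusted p = 1), and R525H and G173R by -0.66 (edgeR adjusted p = 0.0195). The R525H and empty-vector libraries enter more than 1 of these comparisons, which are therefore not independent of each other.

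Both calls depended on how the spread was estimated and on single libraries. With the spread taken from the 6 libraries alone, edgeR called no gene (adjusted p of 0.24 for Pak2 and 0.307 for Cep55), and 657 genes had an unadjusted p under 0.05. Leaving out R525H library 2, R525H library 3 or empty-vector library 1 ended both calls, and leaving out empty-vector library 2 or 3 ended the call of Cep55. With libraries 1 and 2 of each group alone, both were called, with an adjusted p of 0.0143 for each and 19 genes called in all. DESeq2 called 48 of 15770 genes (0.304%), 16 higher (0.101%) and 32 lower (0.203%), both genes among them.

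**Figure D1:**
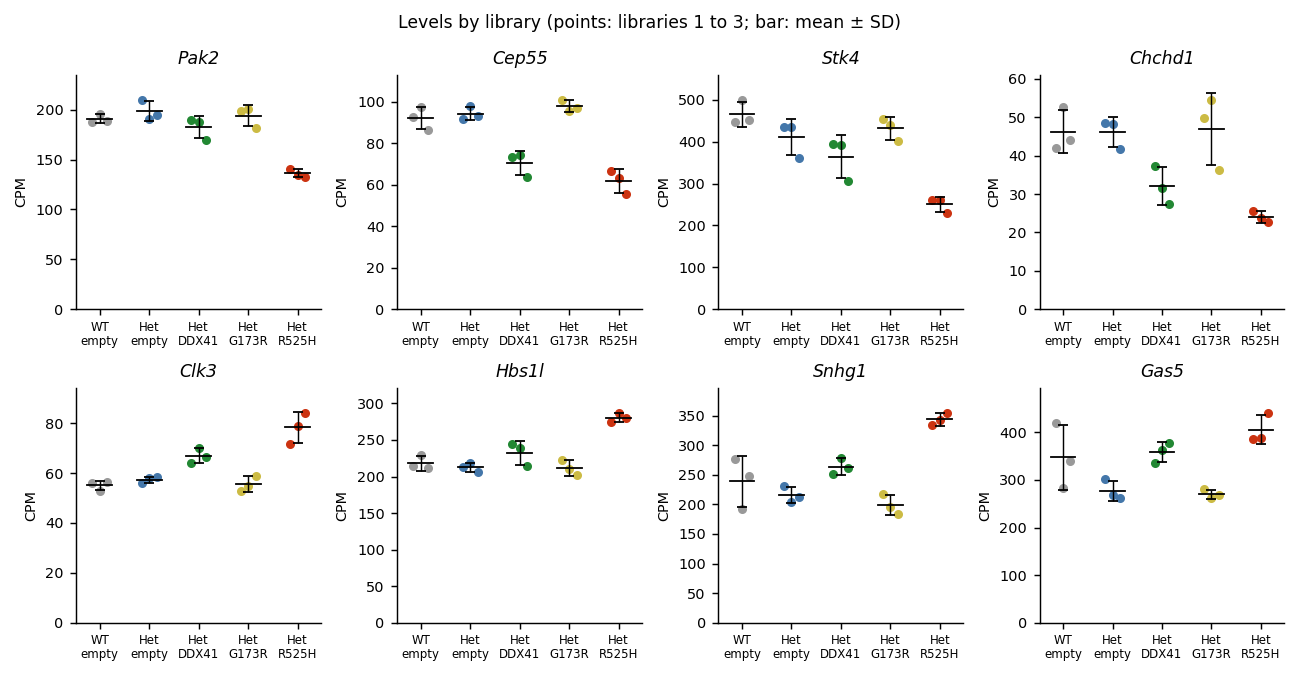
Levels of 8 genes in CPM (vertical axes, starting at 0) in the 15 libraries, by group; points are libraries 1 to 3 from left to right and bars are the mean ± SD (n = 3). Pak2 and Cep55 passed the test against empty vector, the other 6 did not; in all 8 panels the R525H libraries lie wholly above or wholly below the empty-vector libraries.

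Next to Pak2 in order of p stood other genes that lay lower with R525H, none of which passed the adjustment in edgeR. With Pak2 and Cep55 they make up the 12 lower genes chosen by p. Of these, DESeq2 called all 12, edgeR with a stricter filter of 1 CPM in 3 libraries 10, edgeR on library totals 9 and edgeR on libraries 1 and 2 alone 7. The genes were chosen by p in these same libraries, so such counts are no independent support, here and for the higher genes below. Stk4, the kinase at the head of the Hippo cascade, lay at 435, 435 and 361 CPM with empty vector and 261, 261 and 230 CPM with R525H (log2 -0.71 ± 0.11 SE, edgeR adjusted p = 0.0629). Chchd1, a protein of the small subunit of the mitochondrial ribosome, lay at 48.4, 48.3 and 41.7 CPM against 25.7, 23.8 and 22.7 CPM, or 52.1% of the empty-vector level (log2 -0.94 ± 0.15 SE, edgeR adjusted p = 0.0629). For both genes the highest R525H library was below the lowest empty-vector library by more than the range within either group. Map4k2, another kinase, lay at 124 ± 3.68 CPM against 94.4 ± 5.91 CPM (SD, n = 3; edgeR adjusted p = 0.0751). Orc3, a subunit of the origin recognition complex, lay at 119 ± 4.89 against 92.3 ± 5.24 CPM, and Prpf18, a splicing factor of the last catalytic step, at 64.3 ± 3.4 against 49.2 ± 0.546 CPM (SD, n = 3; edgeR adjusted p = 0.0859 for each).

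The remaining lower genes chosen by p came from varied functions. Man2c1, a cytosolic mannosidase, went from a mean of 54 ± 1.93 to 36.9 ± 3.23 CPM (SD, n = 3, as for all pairs in the next sentences), and Galns, a lysosomal sulfatase, from 59.3 ± 2.48 to 44.1 ± 3.36 CPM. Adgrl1, an adhesion receptor also called latrophilin, had means of 48.7 ± 1.27 and 32.2 ± 3.17 CPM, and Cc2d1b, which binds a component of the membrane-cutting ESCRT machinery, 59.1 ± 1.57 and 42.8 ± 2.58 CPM. Aebp1, which encodes a carboxypeptidase-like protein, had means of 111 ± 5.2 and 75.9 ± 11 CPM. It was also lower in the heterozygous than in the hi-Ddx41+/+ line, both with empty vector (152 CPM in the latter, edgeR adjusted p = 0.0146), so its level with R525H lay farther from the hi-Ddx41+/+ line than its level with empty vector. The adjusted p of these 5 genes lay between 0.0629 and 0.0859 by edgeR.

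The 12 genes that lay higher with R525H by the same rule were not called by edgeR, while DESeq2 called all 12 and edgeR with the stricter filter or with library totals called 1, Hbs1l. Snhg1, a noncoding RNA that carries small nucleolar RNAs in its introns, lay at 231, 205 and 212 CPM with empty vector and 334, 343 and 355 CPM with R525H (log2 0.67 ± 0.11 SE, edgeR adjusted p = 0.0629). Clk3, a kinase that phosphorylates SR splicing factors, lay at 56.1, 57.9 and 58.3 CPM against 71.9, 79 and 84.2 CPM (log2 0.45 ± 0.07 SE, edgeR adjusted p = 0.0629). Hbs1l, a GTPase that helps to release stalled ribosomes, lay at 213, 219 and 206 CPM against 275, 287 and 280 CPM (log2 0.40 ± 0.07 SE, edgeR adjusted p = 0.0629). None of the 3 overlapped between the groups.

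Gas5, another host of small nucleolar RNAs, lay at 302, 268 and 263 CPM against 387, 389 and 441 CPM (log2 0.54 ± 0.12 SE, edgeR adjusted p = 0.2). Igf2r, the receptor that carries mannose 6-phosphate proteins to lysosomes, was low throughout, at 4.1, 3.06 and 2.42 CPM against 6.62, 6.96 and 6.54 CPM (edgeR adjusted p = 0.15). Fam133b had means of 74 ± 5.95 and 110 ± 17.4 CPM and Slc25a28, a mitochondrial iron carrier, 45.1 ± 1.52 and 62.9 ± 5.68 CPM (SD, n = 3). The rule's other higher genes, Dld, Tapt1, Dcaf4, Zfp131 and Lcmt1, had log2 differences of 0.27 to 0.39.

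**Figure D2:**
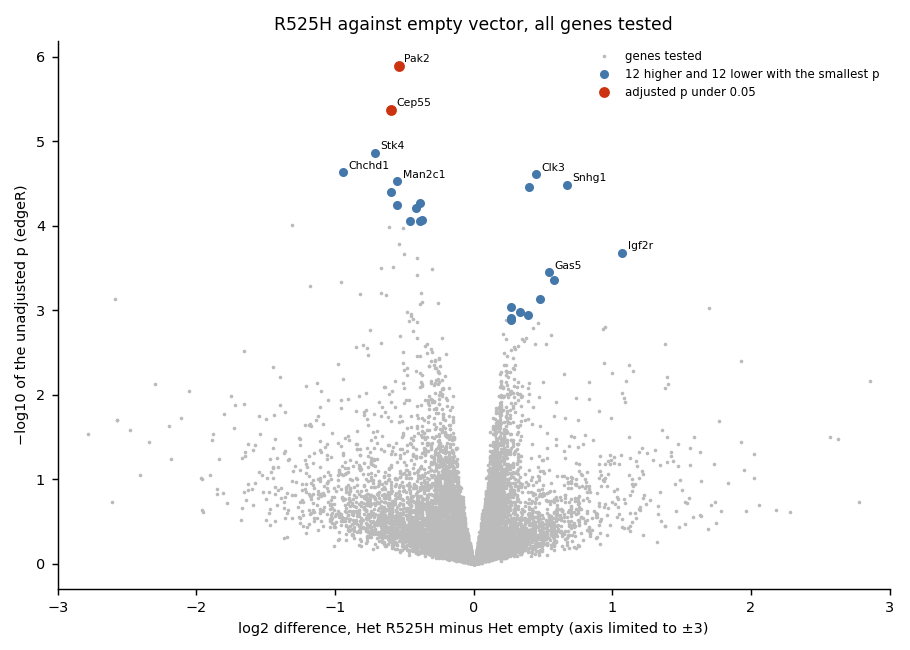
Log2 difference between R525H and empty vector (horizontal axis) against −log10 of the unadjusted edgeR p (vertical axis) for each gene tested; 11 genes lie outside the horizontal range. Pak2 and Cep55 (red) stand at the top, and the 12 lower and 12 higher genes chosen by p (blue) lie between -0.94 and 1.07.

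The same 24 genes are set beside the other vectors here; they were chosen on the R525H and empty-vector libraries that these comparisons share. For the 12 lower genes the log2 difference from empty vector ranged from -0.94 to -0.37 with R525H, from -0.53 to -0.01 with wild-type DDX41 and from -0.11 to 0.10 with G173R. For the 12 higher genes it ranged from 0.27 to 1.07 with R525H, from 0.03 to 0.83 with wild-type DDX41 and from -0.13 to 0.13 with G173R. The highest value in each of these 3 ranges was that of Igf2r, which reached 5 CPM with R525H but not with empty vector, and over the other 11 genes the highest were 0.67, 0.37 and 0.05. Chchd1 illustrates the lower side, with 32 ± 4.92 CPM with wild-type DDX41, between the empty-vector and R525H means. None of the wild-type DDX41 differences from empty vector was called.

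Tested directly, R525H and wild-type DDX41 did not differ at an adjusted p under 0.05 in any of the 14548 genes by edgeR (0% called), with 581 at an unadjusted p under 0.05, while DESeq2 called 32. R525H and G173R differed in 12 genes by edgeR (0.0825%), 8 lower (0.055%) and 4 higher (0.0275%) with R525H. Of these 12, 10 are among the genes above, namely Pak2, Cep55, Stk4, Chchd1, Man2c1, Aebp1, Cc2d1b, Clk3, Snhg1 and Hbs1l. The other two were Ptprs, a receptor tyrosine phosphatase (log2 -0.68, edgeR adjusted p = 0.045), and Tlr4, the receptor for bacterial lipopolysaccharide (log2 0.41, edgeR adjusted p = 0.0216). Against empty vector these gave a log2 of -0.61 (edgeR adjusted p = 0.0874) and 0.19 (edgeR adjusted p = 0.668).

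Some of the largest differences rested on RNAs of low level or wide spread. Cxcl10, a chemokine induced by interferon, lay at 7.84, 6.66 and 11.9 CPM with empty vector and 14.6, 16.7 and 21.6 CPM with R525H (edgeR adjusted p = 0.63). H1f0, a linker histone of slowly dividing cells, lay at 38 ± 7.39 against 23.8 ± 1.35 CPM (SD, n = 3; edgeR adjusted p = 0.188). Elfn2 had means of 3.67 ± 0.809 and 6.99 ± 0.956 CPM, Ifi209 of 19.7 ± 4.01 and 11.1 ± 2.31 CPM and Mink1 of 7.7 ± 1.34 and 4.84 ± 0.877 CPM (SD, n = 3). In the hi-Ddx41+/+ line the means were 1.69 CPM for Elfn2, 47.8 CPM for Ifi209 and 17.7 CPM for Mink1, and for each of these 3 genes R525H lay farther from that line than the empty vector did. Ifi209 belongs to a cluster of near-identical genes on chromosome 1 that can share reads, so its counts are uncertain.

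Host genes of small nucleolar RNAs were the list with the highest median. These genes release small nucleolar RNAs, the guides for chemical modification of ribosomal RNA, from their introns, and many of their spliced transcripts are degraded by nonsense-mediated decay during translation. Of 17 hosts tested, 15 had a positive log2 difference, against 48.3% of all genes, and the median was 0.21, against -0.01 over all genes. Of the 17, 7 lay higher at an unadjusted p under 0.05 and 7 lay wholly above the empty-vector libraries, against 2.27% and 6.39% of all genes. None lay wholly below, against 5.22% of all genes. By edgeR none was called, while DESeq2 called 2 higher, Snhg1 and Gas5, against 0.101% of all genes by that test. Both belong to the higher genes chosen by p in these same libraries, so their calls are no independent support for the list. The list itself was chosen with earlier results of these data known. The list median stayed between 0.12 and 0.22 when any 1 library was left out, with the lowest value without empty-vector library 3.

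Where a host gene's transcript starts is relevant because many of these genes, like ribosomal protein genes, begin with a C inside a run of pyrimidines. The start regions of 5 hosts are shown from RefSeq (GRCm38.p6), 25 bases before and 30 from the start on, with the run of C and T in capitals where the annotated transcript begins with C. Gas5 has another annotated start, with no such run, which is not shown.
Snhg1, chr19:8723462-8723516, plus strand: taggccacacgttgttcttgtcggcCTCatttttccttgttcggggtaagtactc
Gas5, chr1:161035141-161035195, plus strand: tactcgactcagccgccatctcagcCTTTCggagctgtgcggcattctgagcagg
Snhg12, chr4:132308653-132308707, plus strand: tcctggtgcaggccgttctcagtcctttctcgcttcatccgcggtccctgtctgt
Zfas1, chr2:167062909-167062963, plus strand: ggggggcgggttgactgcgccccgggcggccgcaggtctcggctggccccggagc
Snhg8, chr3:123508307-123508361, minus strand: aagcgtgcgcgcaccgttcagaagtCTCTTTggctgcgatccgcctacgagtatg
Snhg1, Gas5, Snhg12 and Zfas1 lay higher with R525H and Snhg8 did not, so the run is seen on both sides. Rack1, not shown, has the longest run among the host starts, 10 bases, and a log2 difference of 0.05. A start of this kind, with at least 3 pyrimidines, was found at 4 of the 16 starts of 14 hosts (25%), and at 5.81% of 32851 RefSeq starts. Host starts on a single chromosome were left out, which was not done for the 32851, so the shares cover unlike sets.

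The hosts differed in how far apart the vectors were. Snhg12 lay at 35.3, 36.3 and 39.9 CPM with empty vector and 49.3, 47.2 and 45.9 CPM with R525H (log2 0.35 ± 0.12 SE, edgeR adjusted p = 0.7). Zfas1 lay at 72.6, 78.7 and 81.8 CPM against 92.2, 87.2 and 117 CPM (log2 0.35 ± 0.13 SE, edgeR adjusted p = 0.793), with its highest level in R525H library 3. Both kept the groups apart, but in CPM by a margin much narrower than that of Snhg1. Snhg8 had a mean of 33.4 ± 5.48 CPM with empty vector and 30.7 ± 3.11 CPM with R525H, and Rack1, the host that encodes a ribosomal scaffold protein, 1657 ± 96.2 and 1721 ± 126 CPM (SD, n = 3). In these 2 genes the groups overlapped. With wild-type DDX41, Snhg1 lay at 251, 279 and 262 CPM and Gas5 at 336, 364 and 378 CPM. For both genes these levels were above every empty-vector and below every R525H library. In the hi-Ddx41+/+ line with empty vector, Snhg1 lay at 277, 192 and 248 CPM and Gas5 at 419, 284 and 340 CPM. There Gas5 overlapped the R525H libraries and Snhg1 did not. Against wild-type DDX41, R525H had a list median of 0.15 and no host called by edgeR. Exons of Snhg1 and Gas5 overlap annotated small nucleolar RNAs on the same strand, so that their reads could be split between host and guide RNA.

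**Figure D3:**
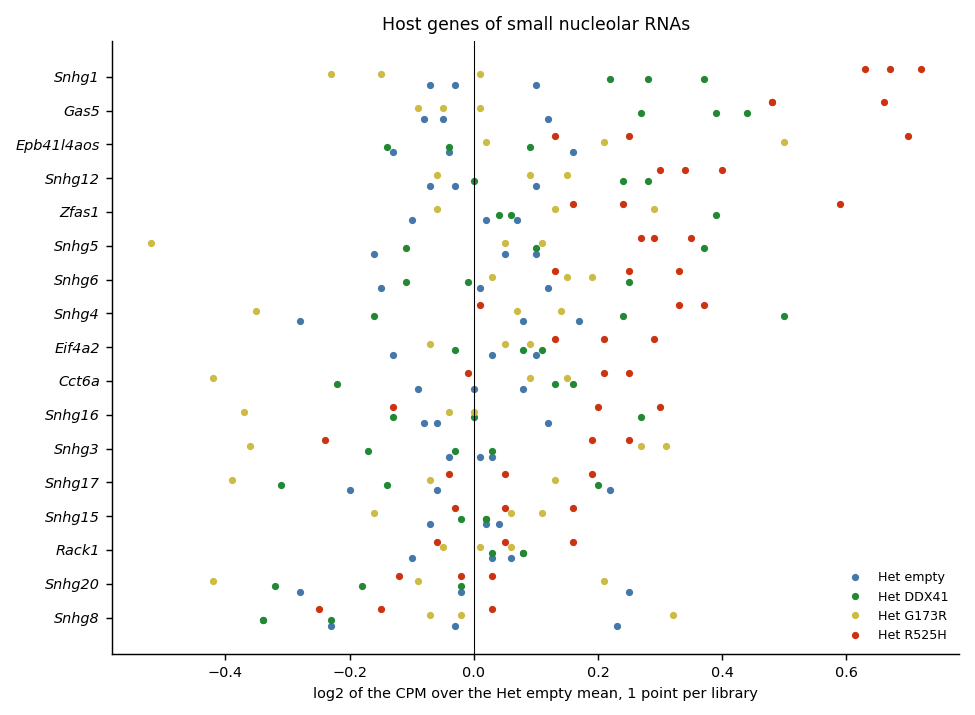
Log2 of the CPM of each library over the mean of the empty-vector libraries (horizontal axis) for the 17 host genes tested, ordered by the mean of the R525H libraries (vertical axis); each point is 1 library. Snhg1 has its 3 R525H points apart from all others, while most hosts below Snhg5 overlap between the vectors. The hi-Ddx41+/+ line is not plotted.

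Ribosome biogenesis factors and ribosomal proteins had small differences. Of 46 biogenesis factors, 40 had a positive difference (median 0.09; 2 higher and 0 lower at an unadjusted p under 0.05), and 10 lay wholly above the empty-vector libraries, against 48.3%, 2.27% and 6.39% of all genes. The share at an unadjusted p under 0.05 was thus near that of all genes. Tsr1, which assembles the small ribosomal subunit, had means of 142 ± 2.38 and 170 ± 7.79 CPM, and Polr1c, a subunit shared by RNA polymerases I and III, 59.7 ± 2.81 and 69.1 ± 2.43 CPM (SD, n = 3). The median was 0.02 without R525H library 2 and 0.14 without R525H library 3, so its size depended on 1 library. Ribosomal proteins had medians of 0.05 (32 of the small subunit) and 0.06 (47 of the large subunit), both -0.00 without empty-vector library 1, and Rpl30 lay at 430 ± 22.7 against 493 ± 19.8 CPM (SD, n = 3). Ribosomal protein genes have many processed copies in the genome, and their counts depend on how shared reads were assigned.

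The splicing machinery, with which DDX41 is associated, also stayed close to its empty-vector levels. Of 21 factors of the early spliceosome 15 had a positive difference (median 0.04), and of 27 catalytic and late factors 22 did (median 0.05). Without R525H library 3 both medians were 0.09, and the lowest were -0.02 for the early factors, without R525H library 2, and 0.02 for the late factors, without R525H library 1. Zrsr2, which recognises the 3′ splice site of the minor intron class, lay at 15.3, 18.3 and 17.1 CPM with empty vector and 20.6, 21 and 21.9 CPM with R525H (edgeR adjusted p = 0.507). Among the late factors, Isy1 lay higher (88 ± 1.6 against 106 ± 3.45 CPM, SD, n = 3) and Prpf18 lower, as given above. SR proteins and CLK kinases had a median of 0.03, and 7 of 24 lay wholly above the empty-vector libraries (6.39% of all genes), among them Clk3 and Clk4 (32.8 ± 1.92 against 39.3 ± 2.22 CPM, SD, n = 3). In the list of nonsense-mediated decay and exon junction factors 16 of 18 had a positive difference (median 0.05, and 0.11 without R525H library 3), with Upf3b at 34.4 ± 2.98 against 41.9 ± 2.42 CPM (SD, n = 3; edgeR adjusted p = 0.575).

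DEAD box helicases other than Ddx41 showed small differences. Of 20 tested, 16 had a positive difference, against 48.3% of all genes. Their median was 0.06, and for the list with Ddx41 the median was 0.02 without R525H library 2. Ddx19b, an RNA export helicase, had means of 57 ± 0.573 and 68.6 ± 5.24 CPM, and Ddx5, a cofactor of splicing and transcription, 1194 ± 37.3 and 1076 ± 3.39 CPM (SD, n = 3). In neither did the groups overlap, and the edgeR adjusted p was 0.527 and 0.7. In the list of 21 with Ddx41, 6 lay wholly above the empty-vector libraries and 1 wholly below, against 6.39% and 5.22% of all genes. At an unadjusted edgeR p under 0.05, 2 lay higher and 1 lower, against 2.27% and 2.72% of all genes.

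Around Cep55, the list of its function held few other differences. Of 30 abscission and midbody genes, 14 had a positive difference and the median was -0.00. Cep55 was the single member at an unadjusted p under 0.05, against 4.98% of all genes. Spast, which severs microtubules at the midbody, had means of 86.4 ± 7.38 and 96.9 ± 3.01 CPM, and Kif23, the midbody kinesin, 103 ± 2.06 and 113 ± 5.82 CPM (SD, n = 3), both opposite to Cep55. Chmp1b, an ESCRT subunit, lay the same way as Cep55, at 40.9 ± 3.45 and 37.5 ± 0.903 CPM (SD, n = 3). In these 4 genes of the 30 the groups did not overlap, a share near the 11.6% of all genes. Rac1, which activates Pak2, lay at 213, 213 and 203 CPM with empty vector and 211, 194 and 167 CPM with R525H, where the groups overlapped.

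Cell cycle lists had medians near that of all genes. Genes of G2 and mitosis had a median of -0.02 (5 of 26 positive) and S phase genes of -0.02 (10 of 25 positive), and both medians were positive without R525H library 3, at 0.03 and 0.06. Mki67, a marker of dividing cells, had means of 897 ± 65.6 and 767 ± 39.3 CPM, and Tyms, which makes thymidylate, lay at 119, 120 and 122 CPM against 101, 95.3 and 88.3 CPM (edgeR adjusted p = 0.507). Tyms kept the groups apart with little spread among the empty-vector libraries.

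**Figure D4:**
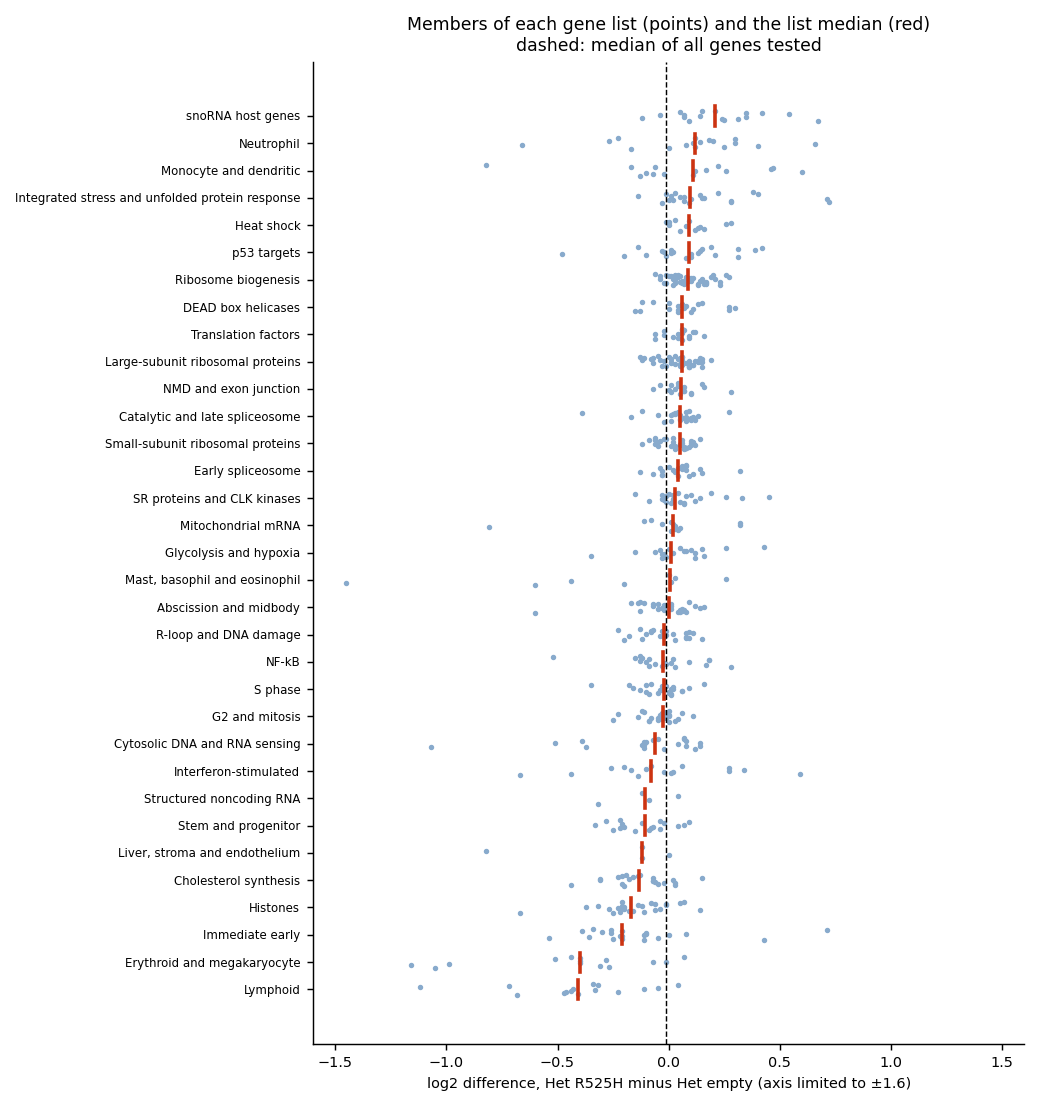
Log2 difference between R525H and empty vector (horizontal axis) for the tested members of 33 gene lists (vertical axis, ordered by median); points are genes, red bars are list medians and the dashed line is the median of all genes, -0.01. Host genes of small nucleolar RNAs lie at the top (median 0.21) and lymphoid genes at the bottom (-0.41); Isg15, Prg2 and Prg3 lie outside the plotted range.

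Sensing and inflammatory genes gave no shared shift. Of 20 genes of cytosolic DNA and RNA sensing, 8 had a positive difference (median -0.06), and of 17 interferon-stimulated genes, 7 did (median -0.08). The former median was 0.03 without R525H library 3, and the latter -0.01 without empty-vector library 3. Ifi204, a DNA sensor of the interferon-inducible cluster, lay at 46.5, 51.4 and 38.9 CPM against 38.1, 37.7 and 29.6 CPM (edgeR adjusted p = 0.635). It lay lower with R525H while Cxcl10 lay higher, and Ifi35 had means of 15.2 ± 0.834 and 18.4 ± 0.384 CPM (SD, n = 3). NF-kB genes had a median of -0.02 (0.07 without empty-vector library 3), with Nfkb2, its p100 subunit, at 64 ± 1.61 against 77.5 ± 6.66 CPM (SD, n = 3). The median of 22 p53 targets was 0.09, with -0.02 without R525H library 3 and 0.23 without empty-vector library 3.

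Lymphoid and erythroid lists had the lowest medians of the 33 lists given here, with many members of low level. Of 15 lymphoid genes tested 1 had a positive difference, and the median was -0.41 (-0.26 without R525H library 2). Rag1, the recombinase of antigen receptor genes, lay at 5.18, 4.87 and 5.8 CPM with empty vector and 3.82, 2.7 and 3.4 CPM with R525H (log2 -0.68 ± 0.23 SE, edgeR adjusted p = 0.716), and Ebf1, a B cell factor, had means of 49.6 ± 5.83 and 42.3 ± 2.2 CPM (SD, n = 3; edgeR adjusted p = 0.914). Pax5 and Cd3e, genes of the B and T lineages, had no count in the 6 libraries. Of 14 erythroid and megakaryocyte genes 1 had a positive difference (median -0.40, and -0.15 without empty-vector library 3), with Gata1 at 1.14 ± 0.289 against 0.563 ± 0.228 CPM (SD, n = 3; edgeR adjusted p = 0.71). Tfrc and Car2, the abundant members, had log2 differences of -0.01 and -0.07.

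Progenitor genes leaned lower by less. Of 18 stem and progenitor genes 3 had a positive difference, and the median was -0.10. Flt3, a cytokine receptor of early progenitors, lay at 231, 259 and 211 CPM against 202, 211 and 175 CPM, and Kit, the stem cell factor receptor, at 519, 482 and 469 CPM against 451, 435 and 438 CPM (edgeR adjusted p = 0.727 and 0.935). Both kept the groups apart, Flt3 by less than the rounding of these values. In bulk RNA, fewer cells of a type and less RNA per cell cannot be told apart.

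Myeloid lists had medians of 0.12 (17 neutrophil genes, 12 positive) and 0.11 (15 monocyte and dendritic genes, 8 positive). The medians were -0.03 without R525H library 2 and -0.02 without R525H library 3, respectively. Members went both ways, down to log2 differences of -0.66 and -0.82, and the monocyte and dendritic median was -0.04 by limma-voom. Cd14, the monocyte coreceptor for lipopolysaccharide, lay at 56.4, 59.7 and 56.8 CPM against 71.2, 83.2 and 82.7 CPM (log2 0.46 ± 0.11 SE, edgeR adjusted p = 0.388). The eosinophil granule genes Prg2 and Prg3 stayed below 1 CPM in all 6 libraries. Their levels are near the limit of detection and carry no weight as a direction.

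Several stress and metabolic lists moved with library 3. The median of 21 immediate early genes, taken in each library against the empty-vector mean, was 0.61 in empty-vector library 3 and between -0.39 and 0.12 in the other 5, and for 22 cholesterol synthesis genes it was 0.57 and between -0.34 and 0.21. The lists' medians for R525H against empty vector, -0.21 and -0.14, were 0.17 and 0.22 without empty-vector library 3. For 26 histone genes R525H library 3 stood at -0.77 and R525H library 2 at 0.29, and the list median of -0.17 was 0.03 without the former and -0.56 without the latter. Glycolysis and hypoxia genes were higher in library 3 of both groups (0.23 and 0.31). Integrated stress genes had a median of 0.10 (-0.01 without R525H library 3) and heat shock genes of 0.09 (0.01 without R525H library 1 and 0.16 without R525H library 3). Mitochondrial mRNAs had a median of 0.02, which was -0.15 without R525H library 1 and 0.15 without empty-vector library 1.

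The tables also hold, for each gene, the mean length of its transcripts weighted by their estimated shares, which moves when the mix of transcripts of a gene moves. Among 8634 genes with at least 5 CPM and more than 1 transcript, 7 were called at an adjusted p under 0.05 in limma on log2 length (0.0811%), all shorter with R525H, and 527 (6.1%) had an unadjusted p under 0.05. The test on lengths was added after the data had been seen. Ybx1, an abundant cold shock protein that binds RNA and DNA, had mean lengths of 1552, 1543 and 1539 bases with empty vector and 1415, 1406 and 1391 bases with R525H, a difference of -9.12% (limma adjusted p = 0.000106). The gap between the groups was wider than the range within either, and the call held when any 1 library was left out. The call was lost with the 6 libraries alone (limma adjusted p = 0.202) or with libraries 1 and 2 alone (limma adjusted p = 0.165).

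Mean lengths of Ybx1 were 1441 bases with wild-type DDX41, 1561 with G173R and 1557 in the hi-Ddx41+/+ line. R525H and wild-type DDX41 were not called different (limma adjusted p = 0.541), and R525H and G173R were (limma adjusted p = 3.57e-05). The level of Ybx1 was 908 ± 31.4 CPM with empty vector and 938 ± 38.8 CPM with R525H (SD, n = 3), so the length moved without a called change in level.

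The other 6 genes were Tnpo1, an import receptor of the nucleus (5747 to 5329 bases), Tor1b, a torsin ATPase (3117 to 2812), G6pdx, the first enzyme of the pentose phosphate pathway (2612 to 2528), Fxyd5, a regulator of the sodium pump (781 to 728), Wdr45, an autophagy protein (1466 to 1371), and Pafah2, a phospholipase (2408 to 2156). For Tor1b and G6pdx the wild-type DDX41 mean lay nearer to the empty-vector mean, and for Wdr45 the wild-type DDX41 libraries lay below R525H. None of the 6 was called between R525H and wild-type DDX41 (limma adjusted p of 0.31 for Tor1b and 0.143 for G6pdx). Between R525H and G173R all but Pafah2 were called (limma adjusted p from 0.0122 to 0.046, and 0.611 for Pafah2). Pafah2 was shorter in the hi-Ddx41+/+ line (1905 bases) and with wild-type DDX41 (1973) than in either group compared. The log2 differences in level of the 7 genes were between -0.16 and 0.13, and none was called. Leaving out 1 library gave between 1 and 11 genes, so apart from Ybx1 these calls depended on single libraries.

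**Figure D5:**
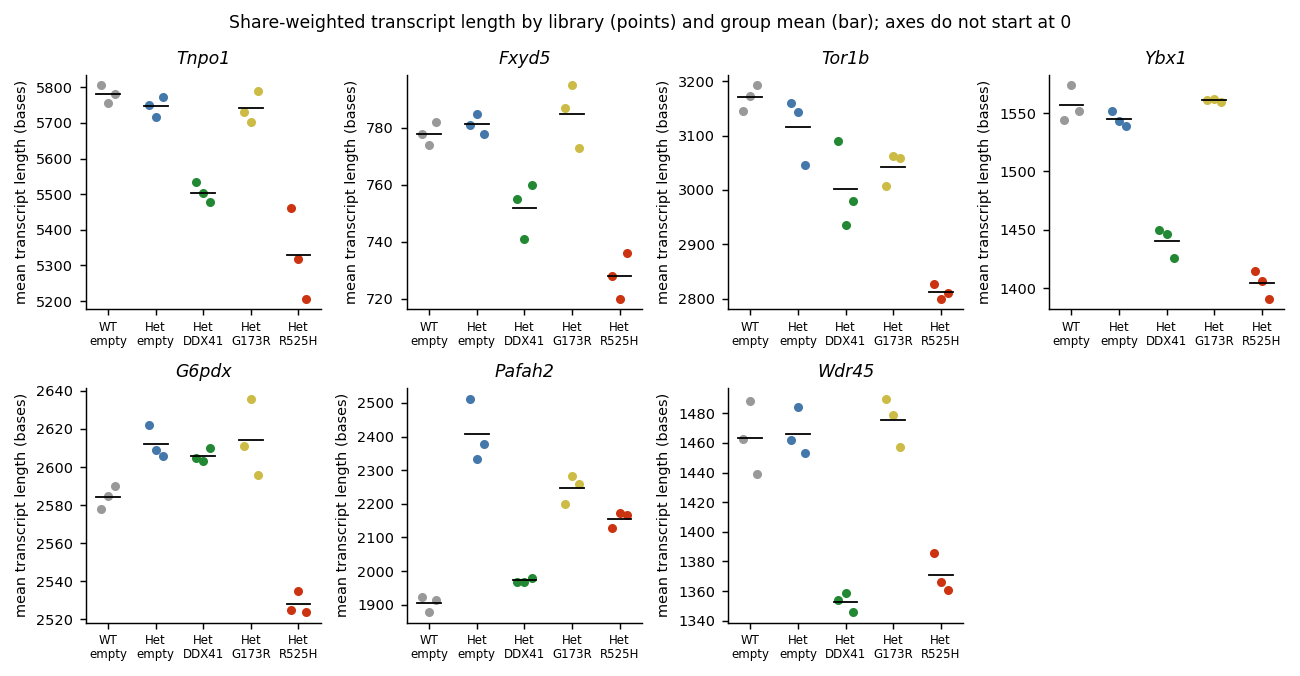
Share-weighted mean transcript length in bases (vertical axes, not starting at 0) of the 7 genes called, by library (points) and group mean (bars). In each panel the 3 R525H libraries lie below the 3 empty-vector libraries. For Ybx1, Tnpo1, Fxyd5, Tor1b and G6pdx the wild-type DDX41 mean lies between R525H and empty vector. For Ybx1, Tnpo1, Fxyd5, G6pdx and Wdr45 the G173R mean lies close to empty vector.

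Among the genes chosen by their level, some lengths also stood apart without a call. Map4k2 had lengths of 2456, 2833 and 2930 bases with empty vector and 2273, 2164 and 2103 with R525H (limma adjusted p = 0.265). Man2c1 went from 2413 to 2049 bases (limma adjusted p = 0.554), Cc2d1b from 2930 to 2543 (limma adjusted p = 0.52) and Slc25a28 the other way, by 12.6%. Pak2 and Cep55 differed in length by -0.819% and -1.97%. Of 37 genes named here for their level or length, 15 have an exon that overlaps an exon of another gene on the opposite strand in GENCODE M21, the longest being that of Clk3 with Edc3 (1117 bases). The kit keeps strand, but no source used here says whether the counting used it.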

How the data were processed

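Total RNA was sequenced after removal of ribosomal RNA with a stranded kit, per the labels' protocols. The authors deposited 1 RSEM table per library, per the file headers, with version, aligner, genome build and annotation not given in the sources used here. These tables hold, per the file headers, the expected count, an unnormalized estimate that splits reads shared between genes, TPM, scaled by the authors for gene length and depth, and the mean transcript length. Between 6.259% and 6.918% of genes in a library had an expected count that was not whole; expected counts were rounded.

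Levels and tests used edgeR 4.0.16 in R 4.3.3 on all 15 libraries in 5 groups of 3 (filterByExpr, TMM factors 0.9687 to 1.057, common dispersion 0.0369), since 3 libraries give few degrees of freedom. The quasi-likelihood contrast of R525H minus empty vector was adjusted by Benjamini-Hochberg over all genes tested. Transcript lengths were tested with limma 3.58.1. The scripts were tested on simulated data.

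The text names Ddx41, all called genes, the 12 higher and 12 lower genes with the smallest p (at least 5 CPM, groups apart, no predicted models), the 5 largest differences each way at an unadjusted p under 0.01, and up to 4 leading members of each list. Other members, Ptprs and Tlr4 were added after their values were seen. The comparison and the 34 lists were chosen with earlier results of these data known. The result of 1 list is not reported here. Alternatives were other scalings and filters, DESeq2 1.42.0, limma-voom, the compared groups alone, libraries 1 and 2, a replicate block and leaving out each library. Replicate numbers were not treated as pairs.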

Additional observations from a re-analysis of the deposited data

How the results depend on the processing

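For R525H against empty vector, 2 genes were called. The count was 48 with DESeq2, 12 with at least 1 CPM in 3 libraries (11 lower, 1 higher), 19 with libraries 1 and 2 only, 11 with library totals (10 lower, 1 higher), 5 with no filter, 0 with only the compared groups, 3 with RLE size factors and 2 with limma-voom. Leaving out 1 library gave 0 to 3. For R525H against wild-type DDX41 (0 called) it was 32 with DESeq2, 6 with the stricter filter, 14 with libraries 1 and 2 only, 2 with library totals and 0 to 2 without 1 library. For R525H against G173R (12 called) it was 104 with DESeq2, 38 with libraries 1 and 2 only, 0 with only the compared groups and 0 to 8 without 1 library. For transcript length (7 called), chosen after seeing the data, it was 0 with libraries 1 and 2 only, 0 with only the compared groups and 1 to 11 without 1 library. With the replicate number as a block the counts were 63, 59 and 141 for the 3 comparisons of levels and 7 for length. The block called all 12 lower and 7 of the 12 higher genes chosen by p. Deviations of same-numbered libraries correlated by 0.0676, 0.336 and 0.38, and R525H library 1 correlated best with empty-vector library 2 (0.219), so the numbers were not taken as pairs. The cause of these differences was not tested, apart from the fewer libraries or genes that some of these fits use. All 435 log2 differences over 15 alternatives kept their sign for the 29 genes chosen by p or size. Those genes were chosen with the groups wholly apart in these libraries, so a change of sign was hardly possible for them. Over all 158 named genes 37 of 2358 had the other sign, from 16 genes, none of them at an unadjusted p under 0.05. Of 34 lists, 11 kept the sign of their median in all. R525H library 3 had the lowest depth, and counts below 1 CPM limit the lineage lists.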
